A study of Salmo salar with 16 samples.

Results

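CD surface antigens are cell surface proteins that are numbered in a common nomenclature and used to tell blood cell types apart. In the spleen count tables of Atlantic salmon, 28 of 79140 named features carried a CD number as their gene name, and 25 of the 28 reached 0.5 counts per 1000000 counted fragments (CPM) in at least 4 of the 16 fish. These 25 were taken as members, and all 25 were also among the 28929 genes tested for diet differences. The 3 names that did not pass were cd109 (at most 2 counts in a fish), cd276 (1 count in 1 fish) and cd2l6_1 (0 counts in all fish).

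Spleen RNA was sequenced from 16 fish after 37 days of feeding, 4 fish on each of 4 diets. FM was the control diet based on fishmeal, and SBM, the challenging diet, held 40% soybean meal. ICJ and ACJ held the same share of soybean meal plus 5% of the yeast Cyberlindnera jadinii, heat-inactivated in ICJ and autolysed, which means digested by the yeast's own enzymes, in ACJ. Diets were given by tank and the spleens came from duplicated tanks, but no label names a fish's tank, so a tank effect and a diet effect cannot be told apart, and p-values measure only the spread between these fish. Comparisons are written as first diet over second, for example FM|SBM, and 3 of the 6 share the same 4 FM fish.

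Lymphocytes carry their antigen receptors together with CD-numbered signalling chains. The T cell receptor signals through the CD3 chains, and the B cell receptor signals through CD79. Macrophages and dendritic cells carry other antigens, such as lysosomal glycoproteins and lectins, and further CD antigens, among them the tetraspanins and the complement inhibitors, occur on many cell types. The spleen of fish holds all of these cells together with red blood cells and thrombocytes.

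The 25 members were grouped by name and role, after their values were seen. There were 5 T cell genes (cd3e, cd3z, cd3z_1, cd226, cd40l) and 2 B cell genes (cd79b, cd37). A myeloid group of 4 held cd68, cd302, cd200r1 and cd200, the gene of its ligand. The ligand gene was placed there with its receptor and is not taken as a marker of myeloid cells. The others were 4 tetraspanins (cd9, cd53, cd63, cd82), 7 antigens grouped as broad (cd55, cd59, cd99, cd99l2, cd164, cd166 and cd34, which in mammals belongs to progenitor and endothelial cells) and 3 genes whose name is no CD antigen. The last 3 were cd032, which RefSeq calls fam241a, cd2b2, whose human namesake binds CD2 inside the cell, and cd2l6, whose human namesake is a relative of the cyclin-dependent kinases. Without them 22 members remained. The CD3 zeta chain had 2 genes, cd3z on chromosome 16 and cd3z_1 on chromosome 17. Fragments matching several places were not counted and cd3z_1 has only 237 exon bases, so the split of reads between these copies is uncertain.

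Total counts on named features were between 5013312 and 9075622 per fish, and a floor of 3 counts corresponded to between 0.316 and 0.636 CPM, which accounts for counting error and nothing else. CPM values below are scaled by TMM, which adjusts for differences in library composition, with factors between 0.94 and 1.06. The common biological coefficient of variation between fish of a diet was 0.199 on the scale of a fraction of the mean.

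Compared per length, as CPM per 1000 exon bases, the most abundant member was cd53, a tetraspanin of leukocytes, with a mean of 232 over the 16 fish. It was followed by cd68, a lysosomal glycoprotein of macrophages, with 139, and by cd37, a tetraspanin of mature B cells, with 125. On this per-length scale the next genes were cd3e (85.7), cd79b (81.2) and cd59 (78.3), with overlapping ranges. The 16 fish had 77.8 to 99.2 for cd3e, 64.8 to 112.6 for cd79b and 68.6 to 85.6 for cd59. Differences between these genes within fish were not tested. At the low end, cd200r1 had 2.91, cd40l 2.68, cd2l6 2.47 and cd34 1.20 CPM per 1000 exon bases. In the count tables cd34 had between 4 and 38 counts per fish, cd40l and cd200r1 had at least 10.

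**Figure D1:**
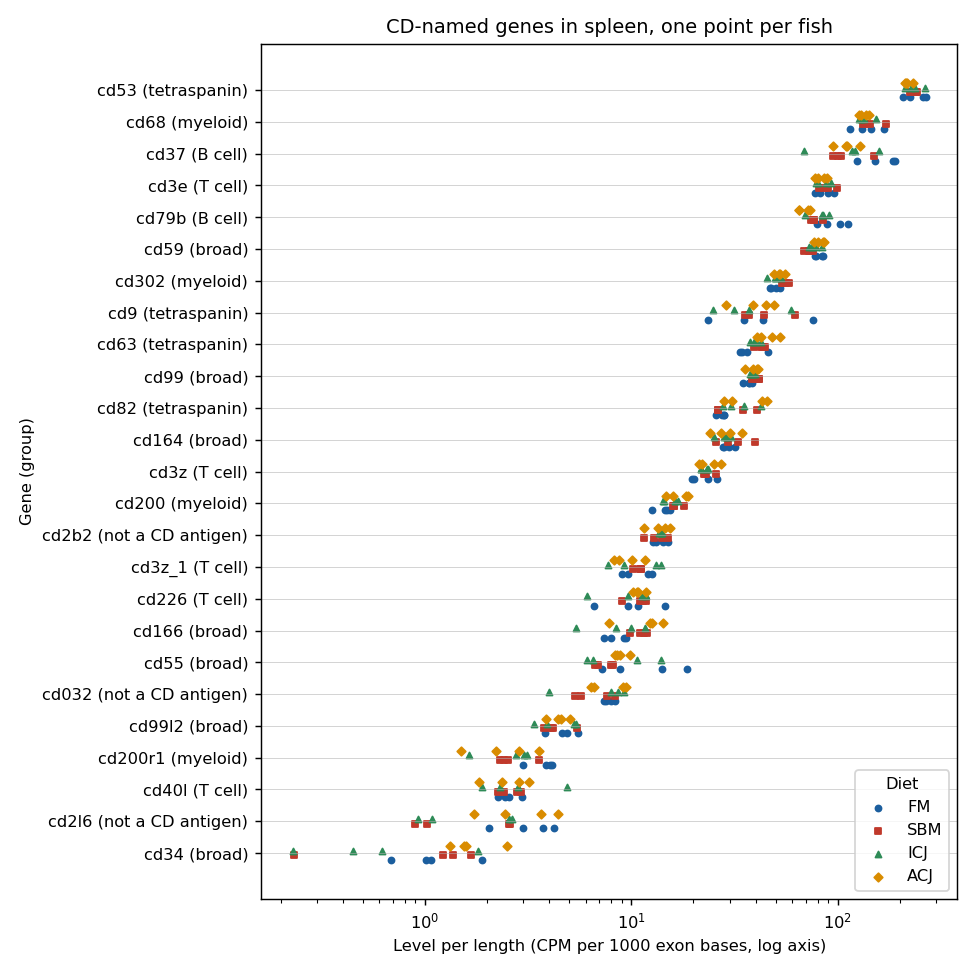
Levels of the 25 members per length (CPM per 1000 exon bases, log axis), with a point for each of the 16 fish, coloured by diet and ordered by mean. The members run from cd34 (mean 1.20) to cd53 (mean 232), and in most of them the points of the 4 diets lie among each other.

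The members also differed in how much they varied between fish. The coefficient of variation of the CPM over the 16 fish was 5.05% for cd99, 6.68% for cd59, 6.83% for cd302 and 7.62% for cd3e. Among members with a mean of at least 5 CPM, the widest ranges belonged to cd9, cd55 and cd37. The highest fish had 3.23 times the CPM of the lowest for cd9, 3.04 times for cd55 and 2.75 times for cd37, against 1.27 times for cd3e.

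With edgeR's quasi-likelihood test, 0 of the 25 members reached an adjusted p below 0.05 (Benjamini-Hochberg over all 28929 genes) in any of the 6 comparisons. Of all genes tested, the share called was 0.432% in FM|SBM, 0.235% in ACJ|FM, 0.0104% in ICJ|FM and 0% in the comparisons of ICJ with SBM, ACJ with SBM and ACJ with ICJ, so 25 genes at these shares would hold less than 1 call. At an unadjusted p below 0.05 there were 6 members in FM|SBM (24% of members against 14.7% of all genes), 6 in ACJ|FM (24% against 14.9%), 1 in ICJ|FM (4% against 9.26%), 1 in ICJ|SBM (4% against 4.99%), 1 in ACJ|SBM (4% against 6.9%) and 3 in ACJ|ICJ (12% against 5.67%). A test for any difference among the 4 diets called 0 members, with 3 members at an unadjusted p below 0.05 (12% against 12.2%), and called 0.0277% of all genes. DESeq2 on the same counts called 1 member, cd79b, in ACJ|FM and in the test for any diet difference, and 0 in the other 5 comparisons. The shares of all genes above are edgeR's. DESeq2's own share is not given here, so its call of cd79b cannot be set against it.

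The median log2 fold change of the 25 members lay close to that of all genes in every comparison. It was -0.01 in FM|SBM (all genes 0.01), -0.04 in ICJ|FM (0.00), -0.05 in ICJ|SBM (0.01), -0.01 in ACJ|FM (0.00), 0.01 in ACJ|SBM (0.00) and 0.04 in ACJ|ICJ (-0.01). Fitted values of 12 members were higher and of 13 lower in FM than in SBM, and the same counts, 12 and 13, were found for ACJ|FM.

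**Figure D2:**
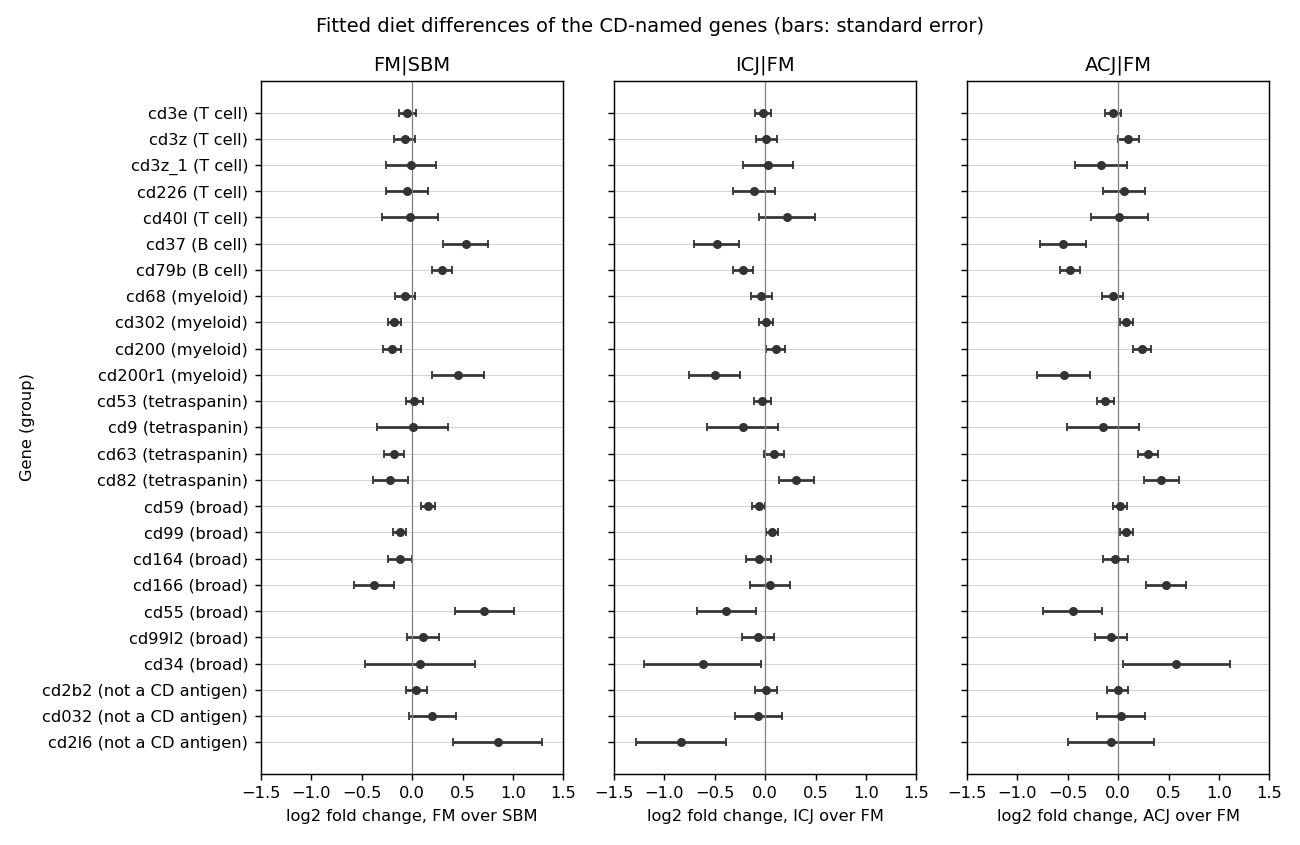
Fitted log2 fold changes of the 25 members in FM|SBM, ICJ|FM and ACJ|FM, with bars of 1 standard error and genes grouped by cell type. The T cell genes lie between -0.17 (cd3z_1 in ACJ|FM) and 0.21 (cd40l in ICJ|FM). The B cell genes cd79b and cd37 lie above 0 in FM|SBM and below 0 in ICJ|FM and ACJ|FM, with cd79b at -0.22 in ICJ|FM. These comparisons share the 4 FM fish.

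Both B cell genes had their highest mean level in FM, and neither passed the test in the main analysis. The gene cd79b (chromosome 19 of ICSASG_v2, 57579964 to 57585383, minus strand), which encodes a signalling subunit of the B cell receptor, had 155.7, 197.7, 179.6 and 139.3 CPM in the 4 FM fish. Its levels were 148.1, 129.8, 134.2 and 135.3 CPM in SBM, 148.6, 122.2, 148.0 and 158.7 CPM in ICJ, and 125.3, 114.5, 113.7 and 129.4 CPM in ACJ. Every ACJ fish was below every FM fish and every SBM fish, while ACJ overlapped with ICJ, and FM overlapped with both SBM and ICJ. The means were 168 ± 25.8 CPM (SD, n = 4) in FM, 136.9 ± 7.86 in SBM, 144 ± 15.6 in ICJ and 121 ± 7.83 in ACJ.

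In ACJ|FM the log2 fold change of cd79b was -0.48 (standard error 0.10, 95% interval -0.69 to -0.26), which is 0.718 times the FM level. Its unadjusted p was 0.000128, and its adjusted p of 0.0501 in edgeR's quasi-likelihood test lay just outside the threshold. It fell below the threshold with DESeq2 (adjusted p = 0.00344), with no filter on low counts (edgeR, adjusted p = 0.0282) and with a filter of 0.5 CPM in 4 fish (edgeR, adjusted p = 0.0496). Over 25 alternative settings its log2 fold change in ACJ|FM stayed between -0.55 and -0.39, with adjusted p between 0.00344 and 0.175, and 8 of the 25 called it. Of the settings that did not call it, leaving out FM replicate 2, the highest fish, gave -0.39 (adjusted p = 0.152), and leaving out ACJ replicate 2 gave -0.44 (adjusted p = 0.175). The share of all genes called under each setting is not given here.

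In the other comparisons the log2 fold change of cd79b was 0.30 in FM|SBM (standard error 0.10, edgeR adjusted p = 0.164), -0.22 in ICJ|FM (adjusted p = 0.508), 0.08 in ICJ|SBM (adjusted p = 0.984), -0.18 in ACJ|SBM (adjusted p = 0.749) and -0.26 in ACJ|ICJ (adjusted p = 0.871). Of the members with no overlap between diets, cd79b was the only one in ACJ|FM, where 7.07% of all genes had none. It was 1 of 3 in ACJ|SBM, where 4.8% of all genes had none.

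The second B cell gene, cd37 (chromosome 19, 4749506 to 4769374), had 179.5, 274.5, 267.9 and 221.1 CPM in FM and 217.0, 138.3, 150.5 and 146.5 CPM in SBM. In ICJ it had 171.0, 100.0, 175.5 and 230.2 CPM, and in ACJ 159.9, 160.6, 138.3 and 187.1 CPM. Of the 4 FM fish, 3 were above all SBM fish, and FM overlapped with each of the other diets. The log2 fold change was 0.53 in FM|SBM (standard error 0.22, edgeR adjusted p = 0.285), -0.48 in ICJ|FM (adjusted p = 0.542) and -0.55 in ACJ|FM (adjusted p = 0.272), so none of the 3 differences passed the test.

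**Figure D3:**
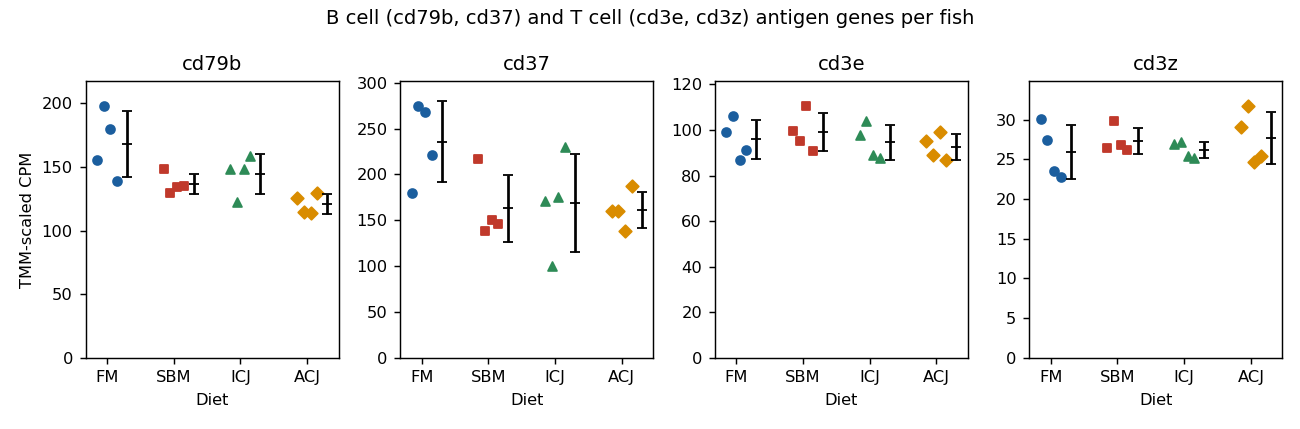
TMM-scaled CPM of cd79b, cd37, cd3e and cd3z in each fish by diet, with the mean and SD of the 4 fish of a diet beside the points. For cd79b the 4 ACJ fish (113.7 to 129.4 CPM) lie below the 4 FM fish (139.3 to 197.7 CPM), and cd3e lies between 86.7 and 110.5 CPM in all 16 fish.

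Other genes of the B cell receptor pathway and of B cell identity were looked at as a list of 21 symbols, of which 19 genes were tested and 0 were called in any comparison. In ACJ|FM, 15 of the 19 were lower and 4 higher in ACJ, with a median log2 fold change of -0.24 (all genes 0.00). At an unadjusted p below 0.05 there were 10 of the lower and 2 of the higher ones (14.9% of all genes). In FM|SBM, 16 were higher and 3 lower in FM, 5 and 3 of them at an unadjusted p below 0.05 (14.7% of all genes). The median log2 fold change there was 0.21 (all genes 0.01). In ICJ|FM, 14 were lower and 5 higher in ICJ, 5 and 3 of them at an unadjusted p below 0.05 (9.26% of all genes). The median there was -0.15 (all genes 0.00). The smallest p in ACJ|FM belonged to LOC106577630, a gene named bcl6 by RefSeq, with a log2 fold change of 0.52 (edgeR adjusted p = 0.0542), and to LOC106576789, named blnk, the adaptor that links the B cell receptor to its downstream enzymes, with -0.50 (adjusted p = 0.0663). LOC106577630, whose namesake bcl6 is a transcriptional repressor of germinal centre B cells in mammals, thus had the opposite sign to cd79b. Its log2 fold change in FM|SBM was -0.50 (edgeR adjusted p = 0.0508). The list's other bcl6 gene, on chromosome 3, had means of 15.3 CPM in FM, 15.0 in SBM and 21.1 in ACJ. The other blnk gene, on chromosome 1, had means of 12.3 CPM in FM and 11.9 in ACJ.

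These are bulk samples, in which fewer cells of a type and less RNA per cell cannot be told apart. Genes of other cell types also differed in level between the diets. The summed level of the red blood cell list (16 genes found, 13 tested) was 22898 to 46025 CPM in FM, 10138 to 17744 in SBM, 9244 to 38861 in ICJ and 21742 to 24811 in ACJ, so that FM and SBM did not overlap. Of its 13 tested genes, 12 had a higher level with FM than with SBM and 1 a lower level, and 0 were called. At an unadjusted p below 0.05 there were 9 of the higher ones and the 1 lower gene (14.7% of all genes). The summed endothelial and stromal list (9 genes) was 2163 to 3641 CPM in FM, 3452 to 3959 in SBM, 2541 to 3517 in ICJ and 3476 to 4580 in ACJ. Its gene stab2, a scavenger receptor of sinusoidal endothelium in mammals, was called lower in FM than in SBM (log2 fold change -0.82, edgeR adjusted p = 0.0291). In FM|SBM 0.432% of all genes were called. The summed thrombocyte list (3 genes found of 9 symbols) was 433 to 587 CPM in FM, 303 to 390 in SBM, 298 to 467 in ICJ and 379 to 471 in ACJ. The summed exocrine pancreas list (3 genes found of 11 symbols) ranged from 19.1 to 2992 CPM over the 16 fish. This sum includes prss16, matched to the symbol prss1 by name only, with 6.92 to 43.1 CPM. The list's gene ctrl alone ranged from 0.141 to 2973 CPM, and LOC106596599 had at most 0.155 CPM. The part of these cell types in the differences of the CD-named genes was not tested. In another fit, 27 red blood cell and hemoglobin genes were left out before filtering, scaling and testing, which does not adjust for the cell mix of a sample. The log2 fold change of cd79b in ACJ|FM was then -0.48 (edgeR adjusted p = 0.0503) and that of cd37 in FM|SBM was 0.53 (adjusted p = 0.288).

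The T cell genes showed no difference between diets that passed the test, and none had an unadjusted p below 0.05 in any of the 6 comparisons. The gene cd3e (chromosome 20, 48981252 to 48984124), the epsilon chain of the CD3 complex, had 99.3, 106.2, 86.7 and 91.1 CPM in FM and 99.6, 95.4, 110.5 and 90.8 CPM in SBM. It had 97.8, 103.8, 89.1 and 87.6 CPM in ICJ and 95.05, 89.1, 99.1 and 86.9 CPM in ACJ, so that all diets overlapped. Its log2 fold change was -0.05 in FM|SBM (95% interval -0.23 to 0.13), -0.02 in ICJ|FM (-0.20 to 0.16) and -0.05 in ACJ|FM (-0.23 to 0.13). In these 3 comparisons and in ACJ|ICJ the value of cd3e, close to 0, changed sign when single fish were left out.

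The zeta chain gene cd3z had 25.9 ± 3.42 CPM (SD, n = 4) in FM, 27.3 ± 1.66 in SBM, 26.2 ± 1.04 in ICJ and 27.7 ± 3.29 in ACJ. Its copy cd3z_1 had between 1.84 and 3.29 CPM, from 13 to 25 counts per fish. The gene cd226, an activating receptor of T cells and natural killer cells in human, ranged from 15.1 CPM in an ICJ fish to 36.1 CPM in an FM fish, with a log2 fold change of -0.05 in FM|SBM (95% interval -0.50 to 0.40). The gene cd40l, named for the CD40 ligand with which activated helper T cells signal to B cells, had 2.97 ± 0.34 CPM in FM, 3.03 ± 0.37 in SBM, 3.48 ± 1.55 in ICJ and 2.98 ± 0.71 in ACJ. Its interval in FM|SBM, from -0.63 to 0.59 on the log2 scale, was wider than that of cd3e. LOC106604808, which RefSeq names cd40lg and which is outside the members, had 4.51 ± 0.62 CPM in FM and 4.81 ± 1.37 in SBM. It had 3.69 ± 1.38 CPM in ICJ and 4.46 ± 0.99 in ACJ, so that ICJ had the lowest mean of cd40lg and the highest of cd40l. The high ICJ mean of cd40l came from ICJ replicate 1, with 5.71 CPM (39 counts). The other ICJ fish had 3.29, 2.21 and 2.69 CPM.

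Among 26 symbols of T cell receptor signalling and T cell identity, 18 genes were tested and 0 were called in any comparison. In FM|SBM 9 were higher and 9 lower in FM, and in both ICJ|FM and ACJ|FM 8 were higher and 10 lower, with medians of 0.00, -0.03 and -0.03 on the log2 scale. The smallest unadjusted p in each of these belonged to lat3, which was matched to the list's symbol lat by the start of its name only. The counts and medians above include lat3, and likewise themis2, though neither is taken as a T cell gene here. The gene that RefSeq names lat, the membrane adaptor of the T cell receptor (LOC106600740), had 21.7 ± 3.36 CPM (SD, n = 4) in FM, 21.5 ± 4.85 in SBM, 19.7 ± 2.97 in ICJ and 20.2 ± 0.94 in ACJ. After lat3, the smallest p belonged in FM|SBM to LOC106612062, named lcp2 by RefSeq, with a log2 fold change of -0.29 (edgeR adjusted p = 0.351). In ICJ|FM it belonged to lck, the kinase that starts T cell receptor signalling, with -0.39 (adjusted p = 0.452), and in ACJ|FM to LOC106603899, also named lcp2, with -0.18 (adjusted p = 0.276).

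None of the genes in the myeloid group passed the test. In FM|SBM 3 of them (cd68, cd302 and the ligand gene cd200) were lower and 1 (cd200r1) was higher in FM. The macrophage gene cd68 (chromosome 7, 5291170 to 5298830) had 357 to 524 CPM in FM, 413 to 537 in SBM, 398 to 478 in ICJ and 399 to 445 in ACJ, and its log2 fold changes in the 6 comparisons lay between -0.13 and -0.02, with all diets overlapping. The gene cd302 (chromosome 21, 14740993 to 14746747), a C-type lectin receptor of macrophages and dendritic cells in human, had 122.4, 109.2, 109.8 and 116.7 CPM in FM and 135.2, 127.6, 129.6 and 125.0 CPM in SBM. In ICJ it had 105.5, 123.2, 116.8 and 115.2 CPM, and in ACJ 113.7, 121.1, 121.7 and 128.4 CPM. All 4 SBM fish were thus above all FM and all ICJ fish, and overlapped with ACJ. The log2 fold change was -0.18 in FM|SBM (standard error 0.07, edgeR adjusted p = 0.209) and -0.17 in ICJ|SBM (standard error 0.06, adjusted p = 0.967), and cd302 was the only member with no overlap in ICJ|SBM, where 3.04% of all genes had none.

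The genes of CD200, a surface ligand that restrains myeloid cells in mammals, and of its receptor lie on chromosome 25 (cd200 at 34302827 to 34325424, cd200r1 at 34236709 to 34240382) and differed in sign. The ligand gene cd200 had 61.7, 64.6, 62.7 and 53.0 CPM in FM and 67.8, 75.5, 67.0 and 68.1 CPM in SBM, with no overlap. It had 65.0 ± 5.57 CPM (SD, n = 4) in ICJ and 71.3 ± 8.13 in ACJ, and its log2 fold change was -0.20 in FM|SBM (edgeR adjusted p = 0.307) and 0.24 in ACJ|FM (adjusted p = 0.230). The receptor gene cd200r1 had 5.69, 5.42, 4.20 and 5.81 CPM in FM, and 3.82 ± 0.83 CPM in SBM, 3.71 ± 0.96 in ICJ and 3.59 ± 1.26 in ACJ. Its log2 fold change was 0.45 in FM|SBM (edgeR adjusted p = 0.425), -0.50 in ICJ|FM (0.576) and -0.54 in ACJ|FM (0.337), so neither the ligand nor the receptor passed the test.

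Of 28 symbols of other macrophage and dendritic cell genes, 19 genes were tested. One of them, lgmn, which encodes the lysosomal protease legumain, was called lower in FM than in SBM (log2 fold change -0.41, standard error 0.08, edgeR adjusted p = 0.0316) and higher in ACJ than in FM (0.47, standard error 0.08, adjusted p = 0.0297). Of all genes, 0.432% were called in FM|SBM and 0.235% in ACJ|FM. Of the 19, 13 were lower in FM than in SBM, with a median log2 fold change of -0.17 (all genes 0.01). At an unadjusted p below 0.05 there were 5 lower and 1 higher in FM (14.7% of all genes). In ICJ|FM, 16 were higher in ICJ, with a median of 0.20 (all genes 0.00) and 0 called. Of these 19, 4 were higher and 1 lower in ICJ at an unadjusted p below 0.05 (9.26% of all genes). In ACJ|FM, 15 were higher in ACJ, with a median of 0.18 (all genes 0.00). There 4 were higher and 2 lower at an unadjusted p below 0.05 (14.9% of all genes). The ICJ fish had 157.9 to 183.2 CPM of lgmn and the FM fish 112.4 to 151.1, without overlap, as for 4.36% of all genes in ICJ|FM.

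Among the tetraspanins, membrane proteins that organise other surface proteins into clusters, cd53 varied least over the 16 fish, with 285 ± 34.595 CPM (SD, n = 4) in FM, 281 ± 9.75 in SBM, 280.0 ± 26.5 in ICJ and 261 ± 10.2 in ACJ. The gene cd63, found on lysosomes and late endosomes, had 63.3, 47.1, 46.2 and 50.1 CPM in FM and 58.7, 72.2, 65.7 and 56.1 CPM in ACJ. All ACJ fish were above 3 of the 4 FM fish, and FM replicate 1 lay among them. In ACJ|FM the log2 fold change of cd63 was 0.29 (standard error 0.10, edgeR adjusted p = 0.180). Without FM replicate 1 it was 0.42 and was called (adjusted p = 0.0273), and without ACJ replicate 2 it was 0.23 (adjusted p = 0.429). The gene cd82 had 36.5 ± 1.61 CPM in FM and 49.0 ± 11.5 in ACJ, a log2 fold change of 0.43 (adjusted p = 0.257).

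The fourth tetraspanin, cd9, varied more between fish of a diet than between diets. It had 80.5, 173.8, 99.7 and 53.8 CPM in FM, and 80.8 to 141.9 CPM in SBM, 57.2 to 135.8 in ICJ and 65.5 to 112.6 in ACJ. Its log2 fold change in FM|SBM was 0.00, with a 95% interval from -0.77 to 0.78, so that differences of cd9 between diets could be neither shown nor limited closely.

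Among the broadly expressed antigens were the genes of 2 complement inhibitors, cd55, named for the decay-accelerating factor, and cd59, named for the inhibitor of the membrane attack complex. The gene cd55 (chromosome 22, 21877303 to 21889508) had 26.1, 32.1, 51.3 and 67.6 CPM in FM and 29.1, 29.6, 25.0 and 24.2 CPM in SBM. It had 23.7, 22.2, 38.7 and 50.6 CPM in ICJ and 32.1, 30.4, 35.7 and 31.1 CPM in ACJ. High values thus occurred in 2 FM and 2 ICJ fish, FM and SBM overlapped, and all ACJ fish were above all SBM fish. The log2 fold change of cd55 was 0.71 in FM|SBM (standard error 0.29, edgeR adjusted p = 0.273), 0.44 without FM replicate 4, and 0.26 in ACJ|SBM (standard error 0.29, adjusted p = 0.884).

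The gene cd59 (chromosome 11, 9886426 to 9890335) had 99.4 ± 4.60 CPM (SD, n = 4) in FM, 89.2 ± 3.76 in SBM, 95.2 ± 6.17 in ICJ and 101 ± 5.16 in ACJ. The highest SBM fish had 93.2 CPM, the lowest FM fish 95.1 and the lowest ACJ fish 94.1, so neither FM nor ACJ overlapped with SBM. The log2 fold change was 0.16 in FM|SBM (standard error 0.07, edgeR adjusted p = 0.275) and 0.17 in ACJ|SBM (standard error 0.07, adjusted p = 0.711). With cd302, cd200 and cd166, which were lower in FM, cd59 made up the 4 members with no overlap in FM|SBM (16% of members, against 8.16% of all genes). In ACJ|SBM the 3 members were cd59, cd55 and cd79b (12% against 4.8%), and there were 0 in ICJ|FM (4.36% of all genes) and in ACJ|ICJ (3.18% of all genes).

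The gene cd166, named for the adhesion molecule ALCAM, had 12.4, 12.3, 9.81 and 10.6 CPM in FM, 14.6, 15.4, 15.9 and 13.1 CPM in SBM, 7.16 to 15.5 CPM in ICJ and 10.4 to 18.8 CPM in ACJ. Its log2 fold change was -0.38 in FM|SBM (edgeR adjusted p = 0.390), 0.47 in ACJ|FM (0.269) and 0.42 in ACJ|ICJ (0.871). The gene cd34, a sialomucin of progenitor and endothelial cells in mammals, lies on the same chromosome as cd55 (chromosome 22, 21930689 to 21949010). It had the widest fitted difference among members, 1.20 on the log2 scale in ACJ|ICJ (standard error 0.55, adjusted p = 0.871), from 1.02, 4.12, 0.521 and 1.41 CPM in ICJ and 3.005, 5.68, 3.52 and 3.60 CPM in ACJ. These 4 ICJ values include 1 fish within the ACJ range, and without that fish, ICJ replicate 2, the log2 fold change was 1.998 (adjusted p = 0.591).

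The most even member, cd99, had 172 ± 7.45 CPM (SD, n = 4) in FM and 188 ± 6.87 with SBM. In FM|SBM the log2 fold change of cd99 was -0.13 (edgeR adjusted p = 0.343). LOC106575202 on chromosome 17, which RefSeq also names cd99, had 198 ± 17.6 CPM in FM and 153 ± 19.2 with SBM. Its log2 fold change was 0.38 (adjusted p = 0.140), so the copies had opposite signs and neither passed the test. The remaining broad antigens cd164 (56.97 to 93.9 CPM) and cd99l2 (14.4 to 23.6 CPM) had no unadjusted p below 0.05 in any comparison. The same held for the 3 genes whose names are no CD antigen, with mean levels of 20.9 CPM for cd2b2, 5.76 for cd032 and 1.505 for cd2l6. In FM|SBM the fitted value of cd2l6 was 0.85 on the log2 scale (standard error 0.44, edgeR adjusted p = 0.389), the highest among members there.

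Several well-known salmon CD genes carry locus numbers in the tables and are therefore outside the members. RefSeq's table named 11 of them, a set looked up after the tables were opened, of which 8 were tested and 0 called in any comparison. The 2 CD4 genes on chromosome 2 had 185 CPM (LOC100169853) and 48.1 CPM (LOC100136502) on average over the 16 fish, and cd8a (LOC100136450) had 12.1 CPM. The log2 fold changes in FM|SBM were 0.02, 0.16 and -0.16 for these 3 genes, with edgeR adjusted p of 0.962, 0.731 and 0.779. Mean levels of the 2 CD4 genes were 184 and 51.0 CPM in FM, 201 and 54.9 in ICJ, and 174 and 41.1 in ACJ. For cd8a the means were 12.3 CPM in FM, 11.9 in ICJ and 10.6 in ACJ. The fish of FM overlapped with those of ICJ and of ACJ in all 3 genes. The invariant chain gene cd74a (LOC106604844), which chaperones MHC class II, had 4663 ± 632 CPM (SD, n = 4) in FM and 5899 ± 415 in ICJ, a log2 fold change of 0.34 in ICJ|FM (adjusted p = 0.210), and 0.26 in ACJ|FM (adjusted p = 0.143). In FM|SBM, 3 of the 8 genes were higher in FM (cd44b, the cd99 copy above and cd5) and 1 was lower (cd74a) at an unadjusted p below 0.05 (14.7% of all genes). For cd5 (LOC106609917), a surface antigen of T cells, the 4 FM fish had 12.3 to 15.3 CPM, the SBM fish 9.90 to 12.2 and the ICJ fish 8.07 to 11.4, so that FM overlapped neither of them. Of all genes, 8.16% had no overlap in FM|SBM and 4.36% had none in ICJ|FM. The log2 fold change of cd5 was 0.35 in FM|SBM (adjusted p = 0.239) and -0.43 in ICJ|FM (adjusted p = 0.328). The adhesion receptor gene cd44b (LOC106573350) had 138.3 to 150.5 CPM in FM and 108.7 to 127.6 in SBM, again without overlap, and a log2 fold change of 0.26 (adjusted p = 0.135).

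Some members varied across fish together with the red blood cell genes, measured as their mean log2 CPM in each fish. Over the 16 fish, the log2 level of cd55 had Pearson's r = 0.89 and Spearman's rho = 0.89 with them (permutation test, p = 4e-05 and 2e-05, adjusted over 25 members 0.001 and 0.0005). Without the 2 fish farthest from the median of the red blood cell genes r was 0.87. For deviations from the diet means, pooled over the 4 diets and called within diets below, it was 0.85. The spread was widest in FM and ICJ, where replicates 3 and 4 had both the higher red blood cell values and the higher cd55. In ACJ the red blood cell values spanned only 7.41 to 7.51. In SBM, replicate 4 had a value of 7.24 and the lowest cd55 of that diet (24.2 CPM). The relation in single diets was not tested. For cd37 r was 0.75 and rho 0.72 (permutation test, adjusted p = 0.0119 and 0.0282), 0.56 without the same 2 fish and 0.68 within diets. For cd3e r was -0.68 and rho -0.59 (permutation test, adjusted p = 0.0298 and 0.0865), -0.58 without the 2 fish and -0.81 within diets, and cd79b had r = 0.45 (permutation test, adjusted p = 0.153). Genes of one library share its depth and composition, so that a larger share of red blood cell transcripts leaves a smaller share for others, and the part of composition in these relations was not tested.

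**Figure D4:**
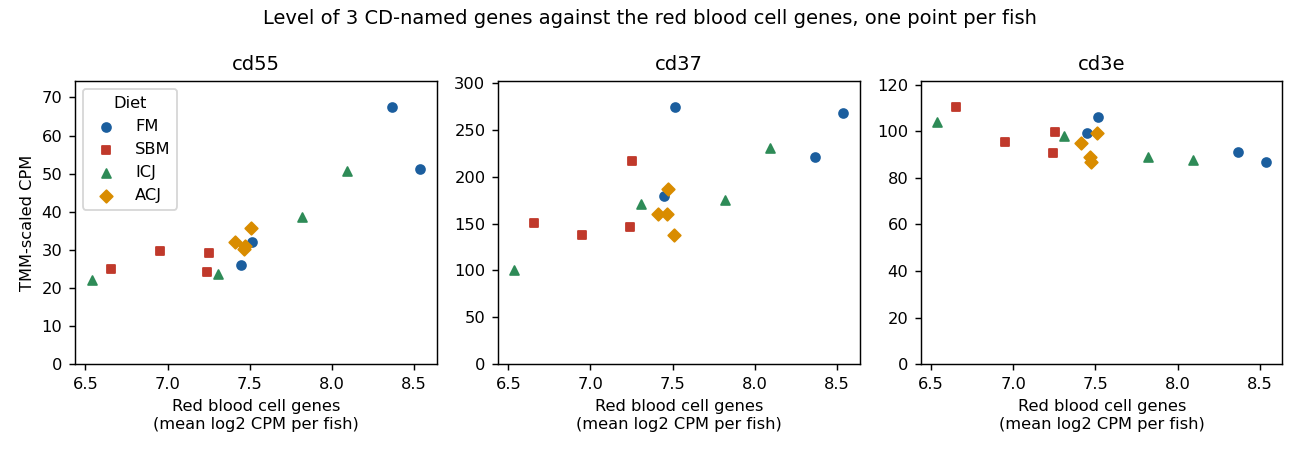
TMM-scaled CPM (linear axis from 0) of cd55, cd37 and cd3e in each of the 16 fish against the mean log2 CPM of the red blood cell genes in the same fish. The points of cd55 and cd37 run upwards (r = 0.89 and 0.75 with both axes on the log2 scale), and those of cd3e run slightly downwards (r = -0.68).

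All 300 pairs of members were also compared across the 16 fish, as log2 CPM. After adjustment over the 300 pairs, 2 pairs had an adjusted p below 0.05 for Pearson's r. The first was cd9 with cd68, with r = 0.91 and rho = 0.88 (permutation test, p = 1e-05 for r, the smallest that 100000 permutations can give, adjusted p = 0.003 and 0.006), 0.87 without the 2 fish farthest from the median of cd9 and 0.93 within diets. FM replicate 2 had the highest cd9 (173.8 CPM) and the second highest cd68 (524 CPM), and FM replicate 4 had the lowest of both (53.8 and 357 CPM). The second pair was the B cell genes cd37 and cd79b, with r = 0.80 and rho = 0.79 (permutation test, adjusted p = 0.027 and 0.063), 0.76 without 2 fish and 0.80 within diets.

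**Figure D5:**
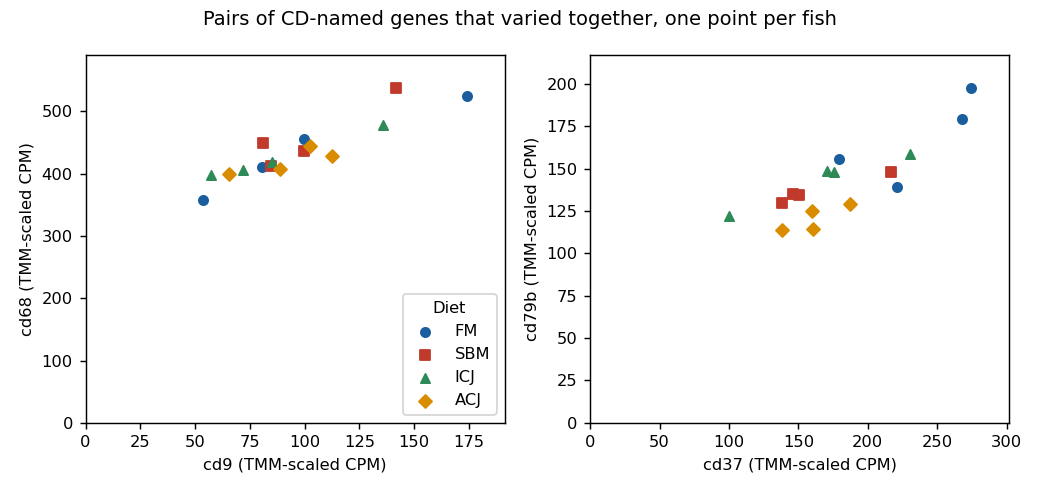
TMM-scaled CPM of cd68 against cd9, and of cd79b against cd37, with a point for each of the 16 fish coloured by diet. The levels of both pairs go up together (r = 0.91 and 0.80 on the log2 scale). For cd9 with cd68 the fish of each diet are spread along the trend. In cd79b the ACJ fish (113.7 to 129.4 CPM) lie below the FM fish (139.3 to 197.7 CPM).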

How the data were processed

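Spleen RNA libraries (TruSeq stranded mRNA) of 16 fish, 4 per diet, were trimmed by the authors with BBDuk, aligned to the ICSASG_v2 genome with HISAT2 (2.1.0) and counted per gene with featureCounts (1.4.6-p1 in the processing notes, 1.5.1 in the table headers). The values deposited are whole-number counts per gene without normalization, of read pairs on the reverse strand, without fragments that match several places or genes. A row without a gene name (0.205% to 0.475% of counts) was left out.

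Everything else was computed from these counts with R 4.3.3: filterByExpr, TMM scaling and 1 quasi-likelihood model of all 16 fish with a mean per diet (edgeR 4.0.16), tested in 6 comparisons and adjusted over 28929 genes. The standard error is the log2 fold change divided by the square root of F, and 95% intervals use 12 residual degrees of freedom. DESeq2 1.42.0, edgeR's likelihood ratio test, other filters and scaling, a replicate block and each fish left out were alternatives. Correlations used log2(CPM + 0.5) and 100000 permutations. Same-numbered fish are different animals.

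Members followed the naming rule. Those named in the text were every T cell, B cell and myeloid member, the 3 smallest p per comparison, the 2 most abundant of other groups and the 3 widest ranges. Members and lists were chosen with earlier results of these data known. Other members, and the grouping by role, were chosen after their values were seen. A list symbol matched names with added letters or digits, and matches wrong by meaning (klf12 for klf1, prss16 for prss1, lat3 for lat, themis2 for themis, tox3 for tox) were kept. Chromosome numbers came from RefSeq's table for Ssal_v3.1, matched by genes (29 chromosomes, at least 86.5% of genes on each) and none of that assembly's coordinates is printed.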

Additional observations from a re-analysis of the deposited data

Results flagged for a closer look

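In 5 of 100 groups of 4 fish (25 members in 4 diets), 1 fish lay apart from the other 3, by Dixon's criterion at the 95% level. Chance alone flags about 1 in 20 groups, which is also 5 of 100, and all 5 were in SBM. SBM replicate 1 had 217 CPM of cd37, against 138 to 151 CPM in the other 3 fish, and 2.40 CPM of cd3z_1, against 2.60 to 2.64 CPM. The cd3z_1 values rest on 17 counts in each of SBM replicates 1 and 2, 19 in replicate 3 and 25 in replicate 4. SBM replicate 2 had 29.8 CPM of cd3z, against 26.2 to 26.8 CPM, and 75.5 CPM of cd200, against 67.0 to 68.1 CPM. SBM replicate 4 had 5.06 CPM of cd200r1, against 3.25 to 3.55 CPM. Without SBM replicate 1 the log2 fold change of cd37 in FM|SBM was 0.70 (edgeR adjusted p = 0.188) in place of 0.53.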

How the results depend on the processing

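The number of members (25) was the same with TMM-scaled CPM in the rule. The count of called members in ACJ|FM was 0 in the main analysis and 1 (cd79b) with no filter on low counts, with a filter of 0.5 CPM in 4 fish and with DESeq2, which also raised the count for any diet difference from 0 to 1. With each fish left out in turn it ranged from 0 to 2 in ACJ|FM, with 2 (cd63 and cd79b) without FM replicate 1 and 1 (cd79b) without FM replicate 4, ICJ replicate 2, ICJ replicate 4 or ACJ replicate 4, and was 0 throughout in the other comparisons. The share of all genes called under each of these settings is not given here. A rise in all calls and one particular to these members therefore cannot be told apart. The log2 fold change of cd3e changed sign only with single fish left out, where it ranged from -0.10 to 0.0098 in FM|SBM, from -0.067 to 0.034 in ICJ|FM, from -0.095 to 0.0031 in ACJ|FM and from -0.065 to 0.017 in ACJ|ICJ. The cause was not tested. With a block for the replicate number, the count stayed at 0 in all comparisons, and cd79b in ACJ|FM had a log2 fold change of -0.48 (edgeR adjusted p = 0.0779). Same-numbered fish did not deviate together (correlations across genes between -0.22 and 0.30). Keeping the row without a gene name, an alternative chosen after seeing the data, changed no call.

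Of the log2 fold changes of named members under the alternatives, 733 kept their direction and side of the threshold, 9 came to pass it (8 of cd79b and 1 of cd63, all in ACJ|FM) and 8 changed sign (all of cd3e). Among the 25 members the fewest counts, between 4 and 48 per fish, were those of cd34, cd2l6, cd3z_1, cd40l and cd200r1. Counting error and spread between fish were not separated.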
